A study of Homo sapiens with 20 samples.

Results

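Glypicans and syndecans are the main families of heparan sulfate proteoglycans that sit in the cell membrane. All 10 human members, the glypicans GPC1 to GPC6 and the syndecans SDC1 to SDC4, were looked up by symbol in the deposited table of 24196 genes, and all 10 were found. The table covers RNA-seq of 8 orthotopic tumors of OVCAR8, a human high-grade serous ovarian cancer line, of which 4 grew in PBS-treated and 4 in gluconate-treated mice. The deposited labels call these samples tumors, while the study's text speaks of treated OVCAR8 cells for this contrast. The labels were followed, and if the samples were cultured cells, what is said of mice and host tissue would not hold. The series also describes knockout and control OVCAR8 cells in culture, which were not analysed here. The comparison asks how mRNA levels in the tumors differed after gluconate, which the study gave to mice as a modulator of the mechanosensitive channel TMEM87A.

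In the study's gluconate experiment, tumors of both groups grew from OVCAR8-sgNC-luc cells, which carry a control guide and luciferase, placed in the ovarian fat pad of NSG mice, which lack T, B and NK cells but keep myeloid cells, vessels and stroma of mouse origin. The mice were 6 weeks old when the cells were implanted, and PBS or sodium gluconate at 1 mg/kg was injected into the peritoneum each week for 35 days. No tumor is labelled as a knockout, and all came from 1 cell line, so the spread between tumors is a spread between hosts and grafts, not between patients. In bulk tumor RNA, fewer cells of a type and less RNA per cell cannot be told apart, and whether mouse fragments were removed before the human values were made is not given in the sources used here.

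The values are FPKM, the fragments of a gene divided by its length and by the fragments of the library, so that levels of different genes can be compared within a tumor. PBS replicate 4 held 3953206 fragments, against 39325749 to 46551535 in the other 7 libraries, which is 9.95 to 11.8 times fewer. The same library stood apart in genes outside the families: PTCH1, the Hedgehog receptor, was at 1.95 FPKM there and at 0.0127 to 0.163 FPKM in the other tumors, and FOXL2, a transcription factor of granulosa cells, was at 21.5 FPKM there and at 1.56 to 3.60 FPKM elsewhere. Of the other 7 granulosa and theca genes, CYP11A1 was also highest there (0.328 FPKM, against 0.0189 to 0.184 FPKM elsewhere), AMH was lowest (1.40 FPKM), and 5 were at 0, which says little at this depth since they did not exceed 0.104 FPKM in the deep libraries either. Differences between the groups are therefore also given without this tumor where that changed a call or moved a value by over 1.5 times. The carcinoma genes PAX8, KRT7, KRT8, KRT18 and EPCAM were found in every tumor, PAX8 at 32.4 to 50.7 FPKM, while KRT19 and MUC16 did not exceed 0.0357 and 0.00168 FPKM in any tumor. WT1, of the same list, was at 6.58 FPKM in PBS replicate 4 and at 1.07 to 1.82 FPKM elsewhere. Markers of host cell types were mixed. Among leukocyte and myeloid genes PTPRC did not exceed 0.0165 FPKM while CD68 was at 19.7 to 28.0 FPKM, and among endothelial genes CDH5 did not exceed 0.0301 FPKM while ESAM was at 3.87 to 8.08 FPKM and EGFL7 at 6.06 to 8.49 FPKM.

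As background, both families carry long sugar chains of heparan sulfate on serine residues that are followed by glycine. The chains bind growth factors, morphogens and matrix proteins and pass them to signaling receptors, and in ovarian and other carcinomas they take part in adhesion and spread. Glypicans are held to the outer leaflet of the membrane by a GPI lipid anchor and can be released by enzymes that cut the anchor. Syndecans span the membrane, are shed by metalloproteases and end inside the cell in a conserved tail that binds PDZ proteins such as syntenin, the product of SDCBP.

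The 3′ ends of the syndecan coding sequences show what the members share inside the cell. Of the last 30 coding bases, stop codon included, 10 were the same in all 4 syndecans, and they are in capitals in the lines for SDC1, SDC3 and SDC4, taken from GENCODE 29 transcripts on GRCh38.
SDC1: cccaccaaacaggAgGAaTTcTAtGCcTga
SDC3: cctgacaagcaggAgGAgTTcTAtGCcTag
SDC4: aaagcccccaccaAtGAgTTcTAcGCgTga
Most of the 10 shared bases fell in the last 4 codons before the stop, which encode the PDZ-binding end of the tail. The others were the first base of the stop codon and a base in the codon just before those 4. Over whole coding sequences, translated and aligned, syndecans shared 40.5% to 45.4% of residues in pairs. Glypicans ranged more widely, from 24.1% for GPC2 with GPC3 to 63.9% for GPC4 with GPC6, and GPC3 was nearest to GPC5 at 43.5%.

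Glypican genes lay partly in tandem. On GRCh38, GPC5 (chr13:91398607-92873682) and GPC6 (chr13:93226842-94407401) were on the plus strand with a gap of 353159 bases, and GPC4 (chrX:133300103-133415490) and GPC3 (chrX:133535745-133985895) were on the minus strand with a gap of 120254 bases. Neighbours did not have like levels: GPC3 had a mean of 7.97 FPKM over the 8 tumors and GPC4 of 1.89 FPKM, and GPC6 had 0.907 FPKM and GPC5 0.0731 FPKM. GPC1 was on the plus strand of chr2:240435671-240468078 and GPC2 on the minus strand of chr7:100169606-100177372. The minus strand also carried SDC1 (chr2:20200797-20225433), SDC3 (chr1:30869467-30908761) and SDC4 (chr20:45325288-45348424). GENCODE 29 places antisense genes such as GPC5-AS1 and GPC6-AS1 within GPC5 and GPC6, and, as the strand setting of the counting is not given, fragments of the partners cannot be told apart.

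GPC6 was the glypican for which the study designed an RT-qPCR assay, and its product is shown because it holds the attachment sites of the sugar chains. Both primers matched both GPC6 transcripts of GENCODE 29, and the product of 125 bases ran from exon 8 into exon 9 of the coding sequence, at chr13:94398568-94403065 on the plus strand of GRCh38. Serine codons followed by a glycine codon are in capitals.
GPC6 product: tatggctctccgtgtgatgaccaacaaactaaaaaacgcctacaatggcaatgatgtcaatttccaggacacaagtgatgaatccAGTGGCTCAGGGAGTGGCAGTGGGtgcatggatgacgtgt
All 4 serine-glycine codon pairs of the GPC6 coding sequence lay in this product, next to one another. Across the glypicans the number of such pairs was 6 in GPC1, 8 in GPC2, 2 in GPC3, 3 in GPC4, 5 in GPC5 and 4 in GPC6. Syndecans had 5 in SDC1, 3 in SDC2, 8 in SDC3 and 4 in SDC4. Not every pair is known to carry a chain, so the counts describe the sequence only.

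Syndecan mRNA was far more abundant than glypican mRNA. Summed over the family, syndecans had 162 ± 13.5 FPKM in PBS tumors and 181 ± 14.3 FPKM in gluconate tumors (SD, n = 4 each), and glypicans had 27.7 ± 5.28 and 31.0 ± 2.31 FPKM. The ratio of the 2 sums lay between 4.97 and 7.75 in the 8 tumors. It was 6.02 ± 1.30 in PBS and 5.85 ± 0.536 in gluconate tumors. Without PBS replicate 4 the PBS mean of this ratio was 6.34 ± 1.39. One member led each family in every tumor, SDC4 with 61.4% to 71.9% of the syndecan sum and GPC1 with 52.7% to 65.6% of the glypican sum.

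**Figure D1:**
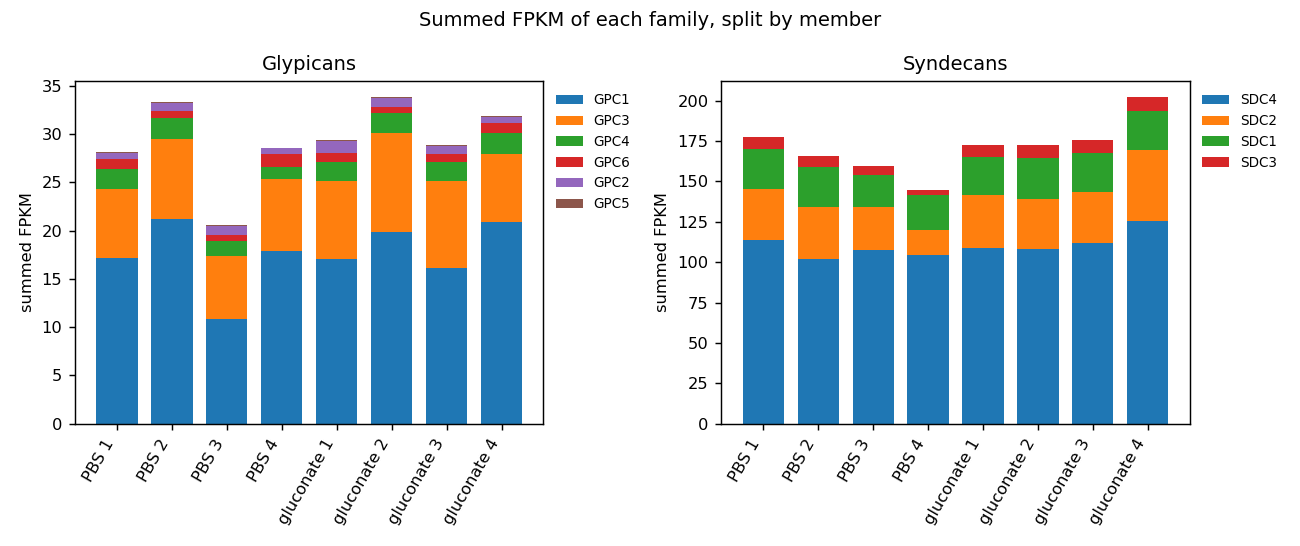
Stacked bars give the summed FPKM of the 6 glypicans (left) and the 4 syndecans (right) in each of the 8 tumors, split by member. GPC1 and SDC4 made up the largest part of every bar, and the glypican sum was lowest in PBS replicate 3 (20.6 FPKM) while the syndecan sum was lowest in PBS replicate 4 (145 FPKM) and highest in gluconate replicate 4 (202 FPKM).

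SDC4, the syndecan of focal adhesions, which works with integrins where cells sense the matrix, was the highest member and ranked 530 of 24196 genes by mean FPKM. In PBS replicates 1 to 4 it was at 114, 102, 107 and 104 FPKM, and in gluconate replicates 1 to 4 at 109, 108, 112 and 126 FPKM. The other 7 values were close together and gluconate replicate 4 was above them, with groups that overlapped. SDC4 also varied least, with a coefficient of variation of 6.77% over the 7 deep tumors, where counting error alone would give 0.901%.

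SDC2, a syndecan of mesenchymal cells and matrix assembly, followed with 31.5, 32.1, 26.6 and 15.8 FPKM in PBS replicates 1 to 4. In gluconate replicates 1 to 4 it was at 32.9, 30.9, 32.1 and 44.0 FPKM. The lowest value belonged to PBS replicate 4 and the highest to gluconate replicate 4, and of the remaining 6 tumors the PBS tumors ran from 26.6 to 32.1 FPKM and the gluconate tumors from 30.9 to 32.9 FPKM, so that the groups overlapped. The gene lies on the plus strand at chr8:96493351-96611780. SDC1, the syndecan of epithelia and plasma cells, was steadier, at 24.7, 25.2, 20.1 and 21.5 FPKM in PBS and 24.0, 25.6, 24.1 and 23.8 FPKM in gluconate tumors. The plasma cell markers measured beside it, MZB1, JCHAIN, TNFRSF17, IRF4, SLAMF7, CD38 and DERL3, summed to 1.04 to 1.24 FPKM in PBS and 1.09 to 1.33 FPKM in gluconate tumors, most of it from DERL3.

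SDC3, the syndecan of the nervous system, was the lowest of the family. It was at 7.45, 6.75, 5.45 and 3.41 FPKM in PBS replicates 1 to 4 and at 7.08, 7.86, 7.72 and 8.48 FPKM in gluconate replicates 1 to 4. In the gluconate group 3 of 4 tumors were above every PBS tumor, and gluconate replicate 1 fell between PBS replicates 1 and 2. The value of PBS replicate 4 rested on 78 fragments, with a 95% Poisson interval of 2.70 to 4.26 FPKM that covers counting error only.

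Among the glypicans, GPC1, a co-receptor for FGF2 that is raised in several carcinomas, was at 17.2, 21.3, 10.9 and 17.9 FPKM in PBS and at 17.0, 19.9, 16.1 and 20.9 FPKM in gluconate tumors. The low value of PBS replicate 3 was a deep library with 1735 GPC1 fragments. GPC3, an oncofetal glypican best known from liver cancer and a restraint on Hedgehog signaling, was at 7.10, 8.20, 6.58 and 7.46 FPKM in PBS and at 8.10, 10.3, 9.03 and 7.01 FPKM in gluconate tumors. GPC4 was lower, at 2.04, 2.23, 1.47 and 1.22 FPKM in PBS and 1.95, 2.03, 1.92 and 2.22 FPKM in gluconate tumors, and its spread in PBS came from replicates 3 and 4.

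GPC6, which binds Hedgehog and WNT5A and is named in the study beside WNT5A and PTCH1, stood at 1.04, 0.699, 0.642 and 1.40 FPKM in PBS replicates 1 to 4. In gluconate replicates 1 to 4 it was at 0.998, 0.681, 0.809 and 0.987 FPKM. The group ranges were nested, with every gluconate tumor inside the PBS range. PBS replicate 4 had the highest value, from 96 fragments and with a 95% Poisson interval of 1.13 to 1.71 FPKM, and GPC6 was the only member that was highest in this tumor. Of its named partners, WNT5A was at 1.32, 1.50, 1.02 and 1.17 FPKM in PBS and 1.37, 1.37, 1.64 and 1.80 FPKM in gluconate tumors. PTCH1 was carried by only 5 to 76 fragments per tumor.

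GPC2, a glypican of the developing nervous system, was at 0.663, 0.886, 0.955 and 0.596 FPKM in PBS and at 1.23, 0.890, 0.879 and 0.662 FPKM in gluconate tumors. In PBS replicate 4 this rested on 6 fragments, which allow 0.219 to 1.30 FPKM. GPC5, which promotes Hedgehog signaling, was hardly detected, at 0.108, 0.0801, 0.0910 and 0.0255 FPKM in PBS and 0.0675, 0.0825, 0.0641 and 0.0660 FPKM in gluconate tumors. A single fragment gave the value of PBS replicate 4, and the deep libraries had 25 to 49 GPC5 fragments. Its coefficient of variation over those 7 tumors, 20.0%, was close to the 17.2% that counting error alone gives, and for the other members the spread between tumors was at least 2 times the counting error.

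**Figure D2:**
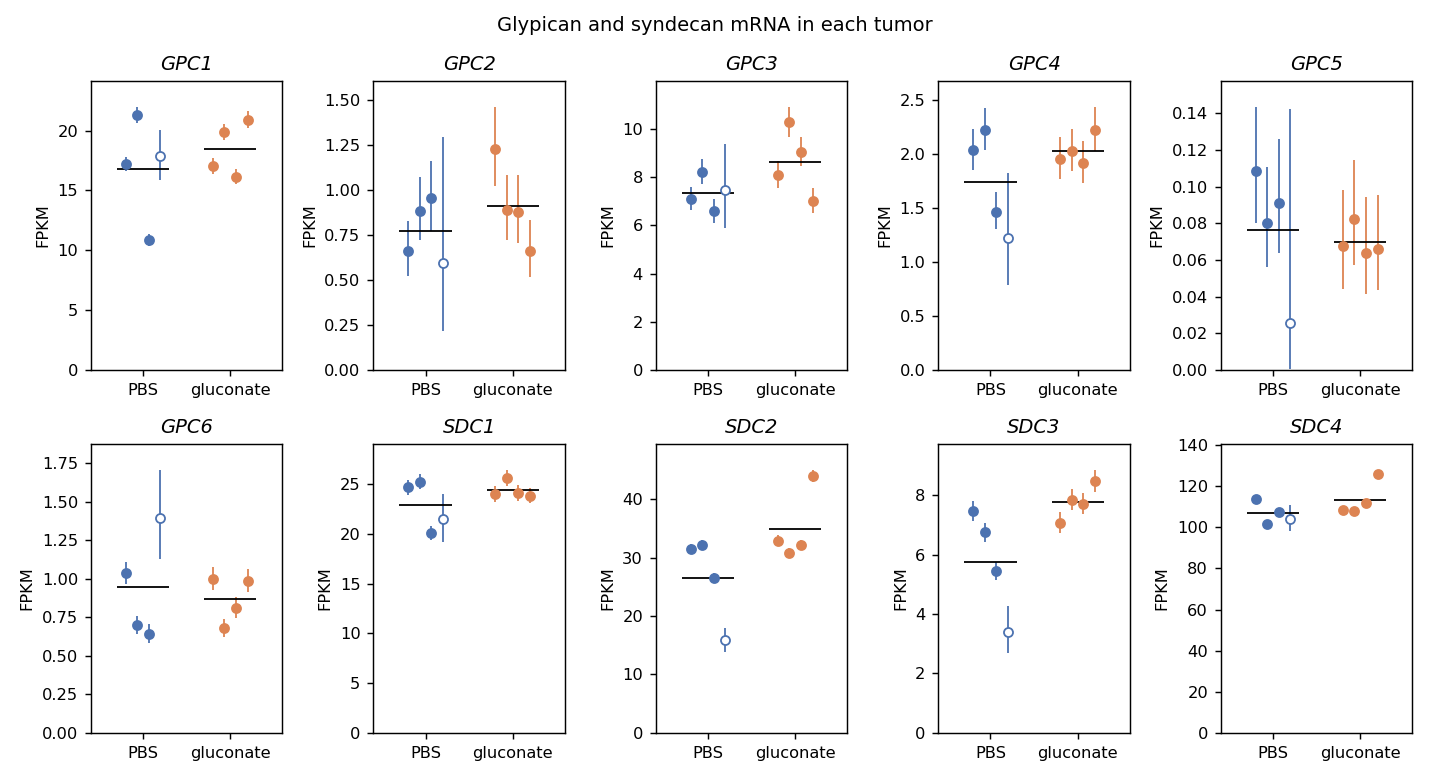
Each panel gives the FPKM of 1 member in the 4 PBS (blue) and 4 gluconate (orange) tumors, replicates 1 to 4 from left to right, with 95% Poisson intervals for counting error as vertical lines and the group mean as a horizontal line. The open circle is the shallow PBS replicate 4, which was the lowest PBS tumor in SDC2 and SDC3 and the highest in GPC6.

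By mean FPKM over the 8 tumors the order was SDC4, SDC2, SDC1, GPC1, GPC3, SDC3, GPC4, GPC6, GPC2 and GPC5. Of the 9 steps in this order, 5 held in every tumor: SDC4 above SDC2, SDC1 above GPC1, GPC1 above GPC3, SDC3 above GPC4 and GPC2 above GPC5. SDC2 was above SDC1, and GPC4 above GPC6, in 7 of 8 tumors, PBS replicate 4 being the exception in both. GPC3 was above SDC3 in 6 of 8 tumors. GPC6 and GPC2 could not be placed by FPKM, since GPC6 was above GPC2 in 3 of 8 tumors.

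The place of GPC6 in this order depended on the length behind its FPKM. The steps of the values gave a length of 17372 bases for GPC6, where its exons in GENCODE 29 cover 6468 bases, and 9921 bases for GPC5, where they cover 3544 bases. For the other 8 members the length was between 0.615 times (GPC1) and 1.03 times (SDC1) the GENCODE exons. Divided by the GENCODE exon length, and taking all fragments to lie in those exons, mean GPC6 was 2.43, on the scale of FPKM, above GPC4 at 1.88, and GPC6 was above GPC4 in 6 of 8 tumors. GPC6 and GPC2 were then apart in every tumor, with GPC6 at 1.72 to 3.75 and GPC2 at 0.396 to 0.816. This rescaling, chosen after seeing the data, left the other members in their order. With no length at all, GPC6 had 15.7, GPC4 9.35 and GPC2 2.15 of every 1000000 fragments of the library.

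**Figure D3:**
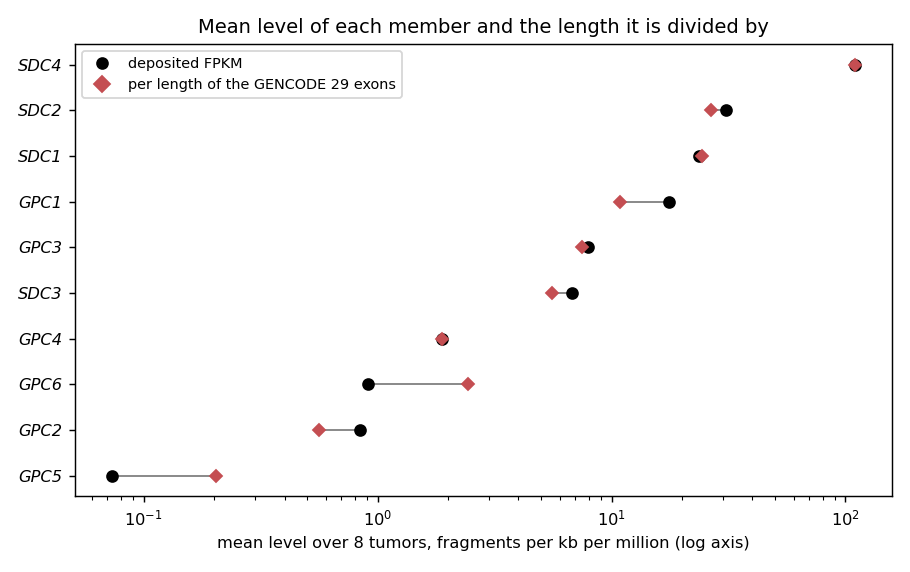
For each member, the black circle is the mean deposited FPKM over 8 tumors and the red diamond the mean per length of the GENCODE 29 exons, both on the scale of FPKM and on a log axis. GPC6 moved from 0.907 to 2.43 and GPC5 from 0.0731 to 0.205, and GPC6 passed GPC4, which stayed at 1.88 to 1.89.

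Promoter sequence was set beside the levels for the highest member and for GPC6. RefSeq promoters on GRCh38.p14, 250 bases before to 50 after the start, were found for 8 of the 10 members. GC boxes, GGGCGG on either strand, were searched because they mark many housekeeping promoters and are in capitals in the lines printed here, at chr20:45348375-45348674 on the minus strand for SDC4 and chr13:93226557-93226856 on the plus strand for GPC6.
SDC4 promoter: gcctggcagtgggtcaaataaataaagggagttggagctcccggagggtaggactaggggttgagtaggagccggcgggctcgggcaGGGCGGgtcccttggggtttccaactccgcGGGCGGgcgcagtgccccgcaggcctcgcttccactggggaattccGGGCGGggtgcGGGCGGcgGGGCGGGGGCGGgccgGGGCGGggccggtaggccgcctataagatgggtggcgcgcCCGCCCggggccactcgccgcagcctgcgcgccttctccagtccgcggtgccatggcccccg
GPC6 promoter: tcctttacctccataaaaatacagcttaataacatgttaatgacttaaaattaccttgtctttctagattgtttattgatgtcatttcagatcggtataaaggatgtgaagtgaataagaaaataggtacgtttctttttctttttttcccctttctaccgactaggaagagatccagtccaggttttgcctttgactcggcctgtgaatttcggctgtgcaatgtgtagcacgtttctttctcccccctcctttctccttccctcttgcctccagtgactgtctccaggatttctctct
SDC4 held 8 GC boxes and 33 CG dinucleotides, with 74.0% G or C. GPC6 held no GC box and 6 CG dinucleotides, with 40.0% G or C, where the median over 35116 RefSeq promoters was 58.7% and 14 dinucleotides, and a GC box stood in 44.95% of all promoters. Counts for the rest were 6 in SDC3, 4 in GPC1, 3 each in GPC2 and GPC5, 2 in GPC4 and 1 in each of the 2 SDC1 promoters. The letters TATAAA were found once in GPC6 and once in GPC5, and in 11.53% of all promoters, and GGAATG, the core letters of TEAD sites, were in none of the 8 members and in 14.03% of all promoters. The matches describe these windows only.

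For gluconate against PBS, no member passed the test. Differences are on the log2(FPKM + 0.1) scale, gluconate minus PBS, from limma's moderated test over 12486 genes, those whose mean FPKM reached 0.5, which 9 members passed and GPC5 did not. Of all genes tested, 4.62% had an unadjusted p under 0.05 and none had an adjusted p under 0.05 (Benjamini-Hochberg), and 0 of the 9 members were in either count. Groups did not overlap for 0 of the 9 members, against 3.49% of all genes. In 8 of 9 members the mean difference was positive, which was also so in 66.4% of all genes, whose median difference was 0.07. Without PBS replicate 4 it was positive in 9 of 9 members, with a median of 0.13 over the members and of -0.00294 over all genes. The 9 members are not 9 separate observations. Pearson's r between them over the 7 deep tumors ran from -0.63 (GPC2 with SDC4) to 0.98 (GPC1 with GPC4). The labels number the tumors of a group as replicates without naming the mice, so the tests measure the spread between these samples.

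SDC3 had the largest difference, 0.48 (SE 0.21, limma p = 0.0505, adjusted p = 0.740, exact permutation p = 0.0571), with means of 5.77 ± 1.78 FPKM in PBS and 7.78 ± 0.573 FPKM in gluconate tumors (SD, n = 4). Without PBS replicate 4 the difference was 0.25 (SE 0.11, limma p = 0.0472, adjusted p = 0.799, exact permutation p = 0.0857), so that it shrank while its unadjusted p passed the threshold, as did 6.21% of all genes in that fit. Leaving out PBS replicate 1, the highest PBS tumor, gave 0.62 (limma, adjusted p = 0.491), with an unadjusted p under 0.05 as in 9.74% of all genes of that fit. Groups of SDC3, and of SDC4, then no longer overlapped, as in 11.4% of all genes. Those of SDC3 did not overlap without gluconate replicate 1 either (7.22% of all genes).

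SDC2 differed by 0.44 (SE 0.22, limma p = 0.0762, adjusted p = 0.740, exact permutation p = 0.143), from 26.5 ± 7.55 FPKM in PBS to 34.96 ± 6.07 FPKM in gluconate tumors (SD, n = 4). Without PBS replicate 4 this was 0.21 (limma, adjusted p = 0.813, exact permutation p = 0.343), with a PBS mean of 30.1 ± 3.05 FPKM (SD, n = 3). Fibroblast markers had differences of the same sign as both genes. The 6 of 11 fibroblast markers that could be tested all had a positive difference, with a median of 0.47, and SPARC alone had an unadjusted p under 0.05. The median was 0.22 without PBS replicate 4, and COL3A1 was then at -0.04 where it had been at 0.49. Summed, the 11 markers were at 207 FPKM in PBS replicate 4, 347 to 432 FPKM in the other PBS tumors and 387 to 524 FPKM in gluconate tumors. Nearly all of this came from COL1A1 and SPARC, while COL1A2, DCN, PDGFRA, THY1 and POSTN stayed at or below 0.125 FPKM in every tumor. Markers of other cell types went both ways. KRT7 of the carcinoma list differed by 0.73, or 0.48 without PBS replicate 4, with an unadjusted p under 0.05 in both fits of limma (adjusted p = 0.740 in all tumors). The endothelial TIE1, at -1.28, passed in all tumors and not without PBS replicate 4, at -1.22. It was at 2.86 FPKM in PBS replicate 3 and at 0.202 to 0.896 FPKM in the others. The mesothelial LRRN4, at -0.48, and AMH of the granulosa list, at -0.18, passed only without PBS replicate 4, at -0.59 and -0.47. KRT8 and KRT18, at -0.20 and -0.33, and the mesothelial CALB2, at 0.80, or 0.39 without that tumor, did not pass in either fit. Nor did WT1 of the carcinoma list, at -0.67, or -0.14 without PBS replicate 4. The part of these markers in the syndecan values was not tested.

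Both other syndecans had small differences with narrow intervals. SDC4 differed by 0.09 (95% interval -0.07 to 0.25) and SDC1 by 0.10 (-0.10 to 0.30). Among glypicans the differences were 0.25 for GPC4 (-0.18 to 0.68), 0.22 for GPC3 (-0.07 to 0.51), 0.21 for GPC2 (-0.32 to 0.73) and 0.17 for GPC1 (-0.26 to 0.60). Exact permutation p ran from 0.200 for GPC3 to 0.629 for GPC1, where 70 assignments allow no p below 0.0286. GPC4 and GPC2 differed by 0.10 each without PBS replicate 4. The interval of SDC4 left out a difference of 0.3 in either direction in every setting tried, while those of these 4 glypicans did not in the fit of all 8 tumors.

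GPC6 differed by -0.06 (95% interval -0.64 to 0.52, limma p = 0.810, adjusted p = 0.934, exact permutation p = 0.8286). Without PBS replicate 4 the sign turned to 0.13 (limma, adjusted p = 0.912, exact permutation p = 0.629), with means of 0.793 ± 0.215 FPKM in 3 PBS and 0.869 ± 0.152 FPKM in 4 gluconate tumors (SD). Without gluconate replicate 2, a deep library, it was also positive, at 0.04, so that the sign of the GPC6 difference was not settled by these tumors. GPC5, below the minimum for the fit, had an exact permutation p of 0.943. Without PBS replicate 4 its mean was 0.0931 ± 0.0142 FPKM in PBS and 0.0700 ± 0.00841 FPKM in gluconate tumors (exact permutation p = 0.0857, 35 assignments).

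**Figure D4:**
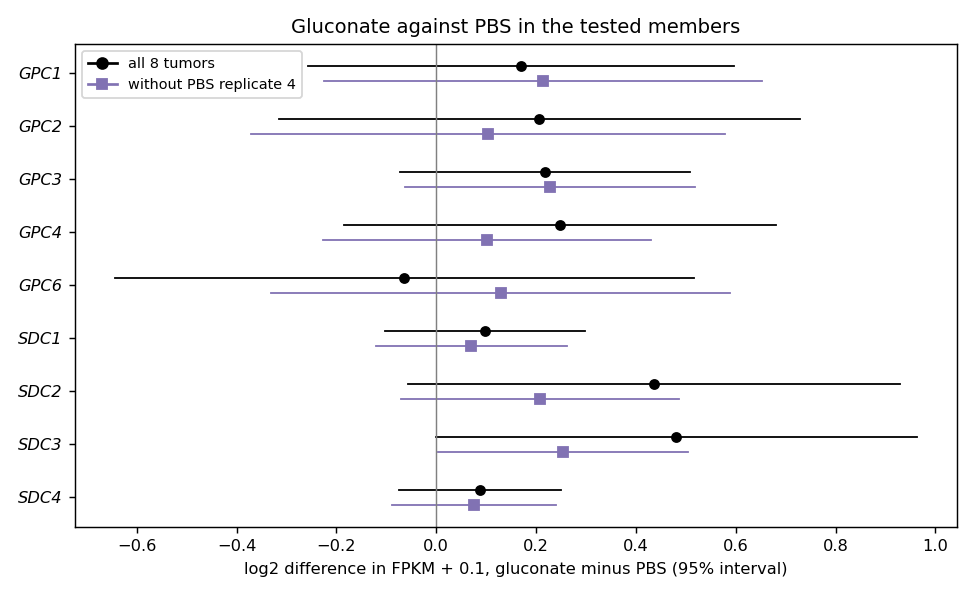
The log2 difference in FPKM + 0.1, gluconate minus PBS, is drawn for the 9 tested members with its 95% interval, from all 8 tumors (black circles) and without PBS replicate 4 (purple squares). Leaving out that tumor brought SDC2 from 0.44 to 0.21 and SDC3 from 0.48 to 0.25 and moved GPC6 from -0.06 to 0.13.

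Genes that act with the families were read from 7 lists, which held 149 genes, 109 of them tested. In all, 9 were higher and 1 was lower in gluconate tumors at an unadjusted p under 0.05 (limma), 9.17% of those tested against 4.62% of all genes, and none had an adjusted p under 0.05. Without PBS replicate 4 it was 7 higher and 5 lower of 108, in a fit where 6.21% of all genes passed. The lists were chosen with earlier results of these data known, and each is described by its counts only.

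Receptors that work beside the members gave the most of these, with 3 higher and 1 lower of 17 tested and a median difference of 0.07, or 0.00557 without PBS replicate 4. The 3 higher genes were integrin subunits, which bind matrix together with syndecans, while the tested subunits ITGA6 and ITGB4 of the same list, at -0.21 and 0.07 (-0.12 and -0.06 without that tumor), did not pass. ITGB5 was at 18.8 ± 3.71 FPKM in PBS and 25.0 ± 2.88 FPKM in gluconate tumors, a difference of 0.42 (SE 0.15, limma adjusted p = 0.740). ITGB1 went from 145 ± 20.0 to 172 ± 6.63 FPKM (difference 0.25, SE 0.09) and ITGAV from 32.9 ± 9.48 to 43.6 ± 3.06 FPKM (difference 0.45, SE 0.20), both with an adjusted p of 0.740. ITGB1 in PBS replicate 1, at 175 FPKM, lay within the gluconate range, and ITGAV in PBS replicate 4, at 19.9 FPKM, was far below the rest. LRP6, a Wnt co-receptor, was at 11.5 FPKM in PBS replicate 4, 5.60 to 6.90 FPKM in the other PBS tumors and 4.65 to 5.73 FPKM in gluconate tumors (difference -0.47, SE 0.21, limma adjusted p = 0.740). All 4 kept an unadjusted p under 0.05 without PBS replicate 4, with differences of 0.30 for ITGB5, 0.22 for ITGB1, 0.23 for ITGAV and -0.24 for LRP6. FGFR1 (43.4 ± 1.42 FPKM in gluconate tumors) and PTPRF (37.7 ± 2.76 FPKM), a phosphatase receptor for heparan sulfate, were the other highly expressed receptors and differed by -0.01 and -0.05, FGFR1 by 0.08 without PBS replicate 4.

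Ligands of heparan sulfate had 3 higher and 0 lower of 18 tested, with a median of 0.20, or 2 higher of 17 and 0.13 without PBS replicate 4. FGF2, the classical ligand of syndecan and glypican chains, was at 9.96 ± 4.90 FPKM in PBS and 15.1 ± 3.60 FPKM in gluconate tumors (difference 0.68, SE 0.30), and this did not pass without PBS replicate 4, with a difference of 0.50. THBS1, a matrix protein that binds syndecans, was at 69.0 ± 17.6 and 102 ± 26.9 FPKM (0.58, SE 0.22), and SLIT3, a guidance factor, at 1.30 ± 0.266 and 1.79 ± 0.204 FPKM (0.44, SE 0.18). FN1, fibronectin, the highest ligand with 612 ± 205 and 827 ± 170 FPKM, differed by 0.49 (SE 0.26), and MDK, midkine, by 0.33 (SE 0.19). WNT5A differed by 0.29 (SE 0.17). THBS1 and SLIT3 still passed without PBS replicate 4, at 0.38 and 0.33, and FN1 and MDK, at 0.22 and 0.13, were less than 0.5 times as large. FN1, MDK and WNT5A did not pass in either fit, and limma's adjusted p was 0.740 for each of these 6.

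Other proteins that carry heparan sulfate chains had 2 higher and 0 lower of 8 tested, with a median of 0.21, and 2 higher and 1 lower, with a median of 0.15, without PBS replicate 4. SPOCK1, a secreted testican, was at 17.6, 8.72, 6.88 and 9.23 FPKM in PBS and 14.1, 14.6, 16.0 and 20.0 FPKM in gluconate tumors (difference 0.68, SE 0.25). COL18A1, a collagen of basement membranes that releases endostatin, went from 4.14 ± 0.743 to 5.32 ± 0.423 FPKM (0.37, SE 0.14), and no gluconate tumor was as low as any PBS tumor. CD44 (0.15, SE 0.09) and AGRN (0.23, SE 0.11) were the most abundant and did not pass, at 85.8 ± 7.40 and 37.9 ± 2.80 FPKM in gluconate tumors. Each of these 4 had an adjusted p of 0.740 in limma. In the fit without PBS replicate 4, SPOCK1 and COL18A1 still passed at 0.65 and 0.24, AGRN was at 0.14, and the gene called lower was TGFBR3, the type III TGF-beta receptor, at -0.32, where it was at -0.21 in all tumors.

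The machinery that builds, anchors and releases the members had 1 gene at an unadjusted p under 0.05. Among 17 tested genes of heparan sulfate synthesis there was none, with a median of 0.04, or -0.03 without PBS replicate 4. EXT1, a subunit of the chain polymerase, was at 136 FPKM in PBS replicate 4, 32.8 to 40.7 FPKM in the other PBS tumors and 30.8 to 35.2 FPKM in gluconate tumors, so that its difference of -0.67, which did not pass, became -0.21 without that tumor, which did. HS2ST1, a sulfotransferase, likewise passed only without that tumor, at -0.22 where all tumors gave -0.10. EXTL2 and NDST1, the next in level, differed by -0.12 and 0.31, NDST1 by 0.13 without it. Of 27 tested genes of the GPI anchor, PIGX alone passed, from 4.02 ± 0.675 to 5.10 ± 0.570 FPKM (0.34, SE 0.14, limma adjusted p = 0.740), and the list median was 0.16. PIGX no longer passed without PBS replicate 4, at 0.30, no gene of that list did, and the median was 0.05. GPAA1, PIGT and DPM1, the highest of that list, differed by 0.13, 0.15 and 0.06, and GPAA1 and PIGT by 0.01 and 0.05 without that tumor.

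Enzymes that shed or trim the members gave 0 of 7 tested, with a median of 0.19, or 0.06 without PBS replicate 4. MMP14, ADAMTS1 and ADAM10, which cut syndecans, were at 53.7 ± 2.73, 49.8 ± 7.57 and 16.4 ± 0.934 FPKM in gluconate tumors and differed by -0.01, -0.09 and 0.06, or by -0.07, -0.21 and 0.11 without that tumor. Cytoplasmic partners of the syndecan tail gave 0 of 15 tested, with a median of -0.01. EZR, ezrin, which links syndecan to actin, was highest at 273 ± 68.3 FPKM in PBS and 249 ± 10.5 FPKM in gluconate tumors, a difference of -0.10 that did not pass. It was -0.25 and passed without PBS replicate 4, the only call in that list. ARHGDIA and CTTN differed by -0.01 and 0.12, or by -0.05 and 0.05 without that tumor.

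Genes whose pattern over tumors was most like that of a member were named by Pearson's r of log2(FPKM + 0.1) over the 7 deep tumors, as a description. For GPC1 these were HOXC10 (r = 0.98), KAT2B (r = 0.98) and FAT4 (r = 0.98), and 159 of the 12486 genes tested had an r over 0.9. HOXC10, a homeobox factor, had its lowest value, 4.71 FPKM, in PBS replicate 3, as GPC1 did. For GPC6 the genes were MED18 (r = 0.99), PDHB (r = 0.98) and MR1 (r = 0.98), with 55 genes over 0.9. PDHB, a subunit of pyruvate dehydrogenase, was at 81.2 FPKM in PBS replicate 1 and 81.6 FPKM in gluconate replicate 1, where GPC6 was highest among the 7. For SDC4 they were MIR22HG (r = 0.98), TMED3 (r = 0.98) and ANXA7 (r = 0.98), with 100 genes over 0.9, and all 3 were highest in gluconate replicate 4. With 12486 genes and only 7 points from the same libraries, some high values of r can arise without any link. How many did so here was not tested.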

How the data were processed

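The authors deposited FPKM values per gene symbol for the 8 tumors (poly(A) RNA, paired reads of 150 bases). Per the labels, the build is GRCh38, and the aligner, counting, strand setting and annotation are not given in the sources used here. Column letters C and T were read as PBS and gluconate from the study's plot of this contrast. The steps of the values gave library depth, gene lengths that make fragments whole (within 0.001) and 95% Poisson intervals for counting error. All 24196 genes met this, but 0 counted as whole. Genes with very low values could therefore pass with 0 fragments and a wrong length. Every value of the members had at least 1 fragment. Tests used limma 3.58.1 in R 4.3.3 (lmFit, eBayes with a trend, two-sided, unpaired) on log2(FPKM + 0.1) over the 12486 genes whose mean FPKM reached 0.5, and exact two-sided permutation tests. A pseudocount understates changes of low genes. The members and lists were chosen with earlier results of these data known. Named were all members, list genes at an unadjusted p under 0.05, the 3 highest of each list and the 3 genes most like GPC1, GPC6 and SDC4. Other named genes were chosen after their values were seen. The fit was tested on simulated data. Alternatives were pseudocounts of 1 and 0.01, other filters and scalings, array weights, voom on recovered fragments, a replicate block and leaving out each tumor. Annotation was GENCODE 29. Python 3.11.15, numpy 2.4.6, pandas 2.3.3, scipy 1.17.1 and matplotlib 3.10.9 were used.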

Additional observations from a re-analysis of the deposited data

Results flagged for a closer look

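Of 26 groups of 4 tumors examined for a value far from the rest, 3 held one, where about 1.3 would be found by chance. SDC2 in gluconate replicate 4 was at 44.0 FPKM, against 30.9 to 32.9 FPKM in the other gluconate tumors. The summed syndecan FPKM of the same tumor, which holds that SDC2 value, was 202, against 173 to 176 in the others. SDC1 in gluconate replicate 2 was at 25.6 FPKM, against 23.8 to 24.1 FPKM in the others, a gap smaller than the SD of 2.46 FPKM among PBS tumors.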

How the results depend on the processing

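Of the 9 tested members, 0 had an unadjusted p under 0.05 in limma with all tumors. The count was 1 with a pseudocount of 1, a mean FPKM of at least 1, median ratio scaling, quantile normalization or voom on recovered fragments, and the member was SDC3 each time, with differences of 0.42, 0.48, 0.42, 0.42 and 0.32. Array weights called no member and brought SDC3 from 0.48 to 0.22, SDC2 from 0.44 to 0.16, GPC4 from 0.25 to 0.03, GPC1 from 0.17 to 0.05 and SDC1 from 0.10 to 0.03. Scalings moved members as well. Median ratio scaling brought SDC4 from 0.09 to 0.02 and SDC1 from 0.10 to 0.03. Quantile normalization brought GPC2 from 0.21 to 0.06 and GPC6 from -0.06 to -0.18. Leaving out 1 tumor at a time gave 0 to 2 members called and 0 to 2 whose groups did not overlap. GPC6 turned from -0.06 to 0.0646 with array weights and 0.0797 with voom, and ran from -0.2085 to 0.1293 when a tumor was left out, being positive without PBS replicate 4 or gluconate replicate 2. GPC1 ran from -0.0247 (without PBS replicate 3) to 0.2965. GPC2 ran from 0.0681 (without gluconate replicate 1) to 0.3352, and GPC3 from 0.1291 (without gluconate replicate 2) to 0.31. SDC1 ran from 0.0375 (without PBS replicate 3) to 0.1461, and SDC4 from 0.0371 (without gluconate replicate 4) to 0.1179. SDC3 passed without PBS replicate 1, 2 or 4, SDC2 without PBS replicate 2 (0.55) and GPC3 without gluconate replicate 4 (0.31), and no member had an adjusted p under 0.05 in any setting. The cause of these shifts was not tested. With the replicate number as a block, 0 members were called. Deviations of same-numbered tumors correlated at -0.18, 0.08, 0.17 and -0.06. PBS replicates 2 and 3 were most like the gluconate tumor of their own number, and PBS replicates 1 and 4 were not. These few values do not settle whether the numbers pair the tumors. Over all genes, the count at an unadjusted p under 0.05 was 577, between 267 and 1216 when a tumor was left out, 1028 with no filter and 470 with the block, which is 2.14% to 9.74% of the genes tested over all settings. In the order of levels, 5 of 9 steps held in every tumor, 7 without PBS replicate 4. Depth limits GPC5 and GPC2, with 1 and 6 fragments in PBS replicate 4.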
